A study of Boehmeria nivea with 18 samples.

Results

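The small RNAs described here are the siRNA loci of ramie stem bark that were listed with tags in every small RNA library. They were chosen by their measured counts alone: a locus entered when its count was above 0 in all 6 libraries. In all, 2870 of the 6683 siRNA loci listed in any library entered, which is 42.9%. Ramie (Boehmeria nivea) is a bast fiber crop, and the study compared bark of the middle part of the stem (MPS), where the secondary walls of fibers thicken, with bark of the top part (TPS), where this thickening has not begun. Both groups were untreated plants of the cultivar Zhongzhu 1, labelled as 40 days old (the study's methods give a younger age), with bark of 5 plants pooled in each sample and 3 samples per section. Small RNA libraries and cDNA libraries were made from the same samples. Bark is a mixture of cell types, so a lower level can mean fewer cells of a type or less RNA per cell, and these cannot be told apart.

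Plant siRNAs are cut by Dicer-like enzymes from double-stranded RNA, which RNA-dependent RNA polymerases often make from a single-stranded transcript. They are loaded into Argonaute proteins, which they guide to matching RNA or, in RNA-directed DNA methylation, to chromatin. Many of them come from transposons and other repeats, and others from defined loci such as those of trans-acting siRNAs. Here each siRNA was known only by an identifier such as novel_sir5951. The tables used gave no sequence, length or position for these identifiers, the field for a description was empty in every siRNA row, and the sources do not say whether an identifier stands for 1 sequence or for a locus. No sequence is therefore printed, and the word locus is used for an identifier.

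The 6 libraries held about 27600000 to 32000000 tags, of which 881560 to 1296776 were assigned to siRNAs. The lowest siRNA count listed was 10 in every library, equal to 0.313 to 0.363 TPM (tags per 1000000 library tags). A count above 0 was thus in effect a count of at least 10, and a locus not listed in a library may still have had fewer tags there. These counts carry PCR and sampling differences between plants besides counting error. The secondary wall gene IRX1, a cellulose synthase subunit gene (BntWG10024039), had 42.7, 190 and 215 FPKM in MPS replicates 1 to 3, against 51.1, 14.9 and 12.2 FPKM in TPS replicates 1 to 3. In replicate 1 alone, its level in the MPS library was below that in the TPS library, so the sections overlapped (two-sided exact permutation test, p = 0.2, where 3 against 3 allows no p under 0.1). IRX15-L (BntWG10008444), a gene of xylan synthesis, had 7.43, 4.87 and 7.59 FPKM in MPS, against 29.8, 28.2 and 35.9 FPKM in TPS, and the sections did not overlap (p = 0.1 by the same exact test).

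The replicate 1 libraries of both sections stood apart from the other 4 in which siRNA loci they listed. Of the 6683 loci, 1118 were listed in 1 library, 1112 in 2, 469 in 3, 591 in 4 and 523 in 5. Of the 1112 loci listed in exactly 2 libraries, 635 were listed in the replicate 1 pair, MPS 1 and TPS 1, while the next most frequent pair, TPS 2 and TPS 3, held 141. Of the 591 loci listed in exactly 4 libraries, 254 were missing from both replicate 1 libraries. Of the 469 loci listed in exactly 3 libraries, 58 were in the 3 MPS libraries alone and 56 in the 3 TPS libraries alone. These counts cannot be set directly against those of pairs of libraries. Without the replicate 1 libraries, 3429 loci were listed in all of the remaining 4.

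**Figure D1:**
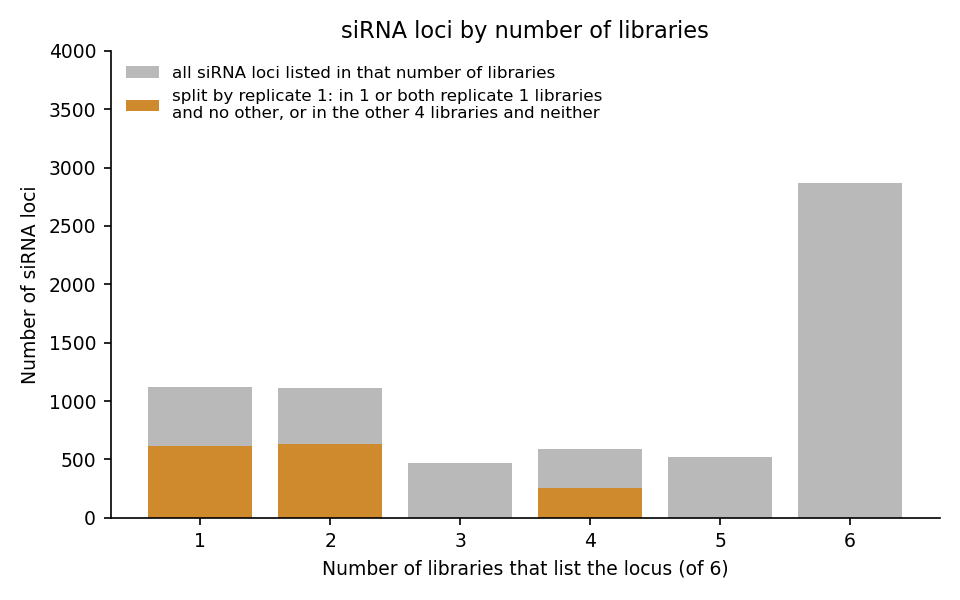
Number of siRNA loci (vertical axis) by the number of libraries that list them (horizontal axis). Grey bars count all loci, and orange bars count those split by replicate 1, among them the 635 loci found only in the replicate 1 pair. The tallest bar is that of the 2870 loci listed in all 6 libraries.

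The counts that defined the set also show how close its members came to its edge. The members with the smallest summed counts were novel_sir6813, with 14, 11 and 10 tags in MPS and 14, 12 and 11 in TPS, followed by novel_sir3295 and novel_sir1302, with summed counts of 74 and 77. The most abundant loci that missed the rule by 1 library were novel_sir7031, novel_sir7350 and novel_sir1899, all 3 not listed in MPS replicate 1. For novel_sir7031, the other libraries had 34.9 and 47.6 TPM in MPS and 1.36, 0.32 and 4.06 TPM in TPS. The most abundant siRNA locus outside the set, novel_sir7196, had 1582, 0.65 and 0.42 TPM in MPS, against 3486 TPM in TPS replicate 1 and no listing in TPS replicates 2 and 3. It was the most abundant siRNA of both replicate 1 libraries, above every member, and was chosen for mention after its values were seen.

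Levels of the 2870 loci spread over more than 3 orders of magnitude, and most loci were scarce. The mean over the 6 libraries ran from 0.394 to 1066 TPM, with a median of 2.77 TPM and a middle range (25th to 75th percentile) of 1.21 to 7.69 TPM. Under 1 TPM there were 530 loci, which together held 1.31% of the members' tags, and 1766 loci lay between 1 and 10 TPM. At the upper end, 44 loci reached 100 TPM or more, which is 1.53% of the loci, and held 32.8% of the tags. The 329 miRNAs present in every library had a higher median, 14.9 TPM. Loci listed in 1 to 5 libraries had a median of 0.235 TPM with unlisted values taken as 0, a difference that the rule itself favours.

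The spread of the members between libraries is set beside that of miRNAs. The median ratio of SD to mean over the 6 libraries was 0.362 for the 2870 loci, against 0.542 for the 329 miRNAs. Among loci of 10 to 100 TPM it was 0.330, against 0.498 for miRNAs of that level, and from 100 TPM it was 0.276 against 0.506. This is a description without a test: the rule removed siRNA loci that fell under the listing minimum in any library, such as novel_sir7196 with a ratio of 1.70, which by itself favours a lower ratio among members. The steadiest loci of at least 10 TPM on average were novel_sir1998, novel_sir1572 and novel_sir1365. For novel_sir1998, values were 21.1, 23.3 and 22.0 TPM in MPS, against 20.2, 22.2 and 18.9 TPM in TPS.

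Together the members held a small and similar part of each library. Their share of library tags was 3.49%, 2.94% and 2.98% in MPS replicates 1 to 3, against 2.79%, 2.89% and 3.03% in TPS. The means were 3.14% ± 0.310 in MPS and 2.90% ± 0.117 in TPS (SD, n = 3 each), and the sections overlapped (two-sided exact permutation test, p = 0.3). The difference of 0.236 percentage points was 0.063 without MPS replicate 1. Of all siRNA tags, members held 86.1%, 95.5% and 95.4% in MPS and 79.2%, 95.3% and 94.7% in TPS (exact p = 0.5). The replicate 1 library was the lowest of its section in both, so that loci outside the set, novel_sir7196 among them, took more siRNA tags there.

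A limited group of loci carried much of the signal. The 10 most abundant loci of each library held 16.2%, 16.0% and 14.1% of the members' tags in MPS, against 18.3%, 17.7% and 17.5% in TPS. Every MPS library was below every TPS library in this share, with means of 15.4% ± 1.16 in MPS and 17.9% ± 0.423 in TPS (SD, n = 3 each). The exact permutation p was 0.1, the smallest that 3 against 3 allows, so that the difference could not pass a threshold of 0.05. With the most abundant locus left out, the sections overlapped in this share (exact p = 0.3). The 100 most abundant loci held 47.8%, 44.9% and 45.5% in MPS and 49.4%, 47.6% and 48.3% in TPS (exact p = 0.2). The upper 50% of tags was reached with 114, 133 and 128 loci in MPS and with 104, 116 and 111 loci in TPS (exact p = 0.2). Within each of the 3 replicate numbers, MPS was lower in the shares of the top 10 and top 100 loci and needed more loci for 50% of tags. The exact paired permutation p was 0.25 for each of these values, the smallest that 3 pairs allow.

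The single most abundant locus did not separate the sections. It held 3.12%, 6.28% and 3.88% of the members' tags in MPS, against 4.06%, 5.41% and 4.47% in TPS (exact p = 0.8). The effective number of loci, which is the inverse Simpson index and falls when few loci dominate, was 213, 150 and 224 in MPS, against 174, 153 and 169 in TPS. Its means were 195 ± 39.8 in MPS and 165 ± 11.4 in TPS (SD, n = 3 each, exact p = 0.4). The difference of MPS minus TPS was 30.1 loci. It was 60.2 with the most abundant locus left out (exact permutation p = 0.1, the smallest that 3 against 3 allows). These are 7 related values compared between the sections with 3 libraries each, including the 2 shares of the preceding comparison, and none could reach a p under 0.1.

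**Figure D2:**
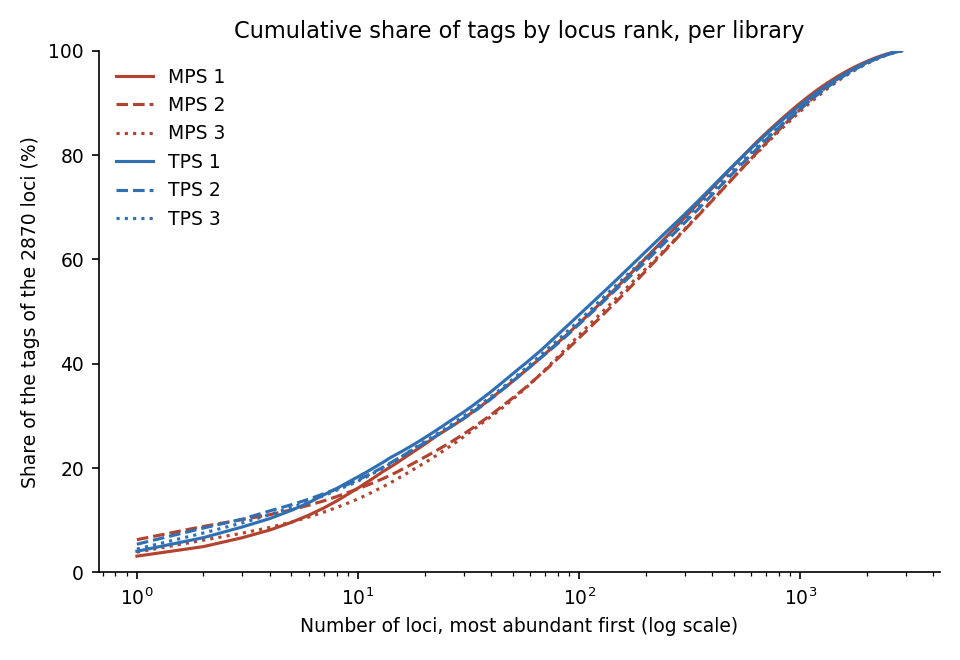
Cumulative share of the members' tags in percent (vertical axis) against the number of loci counted from the most abundant (horizontal axis, log scale), 1 line per library, red for MPS and blue for TPS. At 10 loci the MPS lines lie at 14.1% to 16.2% and the TPS lines at 17.5% to 18.3%.

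The locus at the top differed between replicate 1 and the other libraries, not between the sections. By mean level novel_sir5951 came first, with 66.6, 1843 and 1159 TPM in MPS, against 411, 1563 and 1353 TPM in TPS. It ranked first among members in the 4 libraries of replicates 2 and 3, but 89th in MPS replicate 1 and 7th in TPS replicate 1. In both replicate 1 libraries novel_sir6499 ranked first instead. Its levels were 1090, 748 and 690 TPM in MPS, against 1134, 896 and 934 TPM in TPS, and it ranked no lower than 2 in any library.

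Most other abundant loci were steadier than novel_sir5951, which had a ratio of SD to mean of 0.646. The lowest ratio of the 10 most abundant was that of novel_sir6499, 0.194. The locus novel_sir33 had 465, 385 and 242 TPM in MPS, against 450, 462 and 588 TPM in TPS. For novel_sir1015 the values were 483, 261 and 398 TPM in MPS, against 440, 491 and 478 TPM in TPS. In both loci the sections overlapped. Of the rest of the 10 most abundant loci, novel_sir7385, novel_sir7469, novel_sir2224, novel_sir431 and novel_sir2262 had means of 300.2 to 336 TPM and ratios of SD to mean of 0.205 to 0.402.

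The locus novel_sir7749 varied most among the 10. It had 640, 187 and 146 TPM in MPS, against 728, 80.4 and 154 TPM in TPS, with a ratio of SD to mean of 0.879. Both replicate 1 libraries lay above the other 4, the lower of them at 3.42 times the highest of the others. They also lay above the other 4 in novel_sir6499, novel_sir7385 and novel_sir7469. There the same measure was smaller, at 1.17, 1.23 and 1.18 times. Only 2 loci, novel_sir1015 and novel_sir6499, were among the 10 most abundant of all 6 libraries, while 19 loci were among the 10 most abundant of any library. Among the 100 most abundant, 55 loci were shared by all 6 libraries and 152 were in the list of any library.

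**Figure D3:**
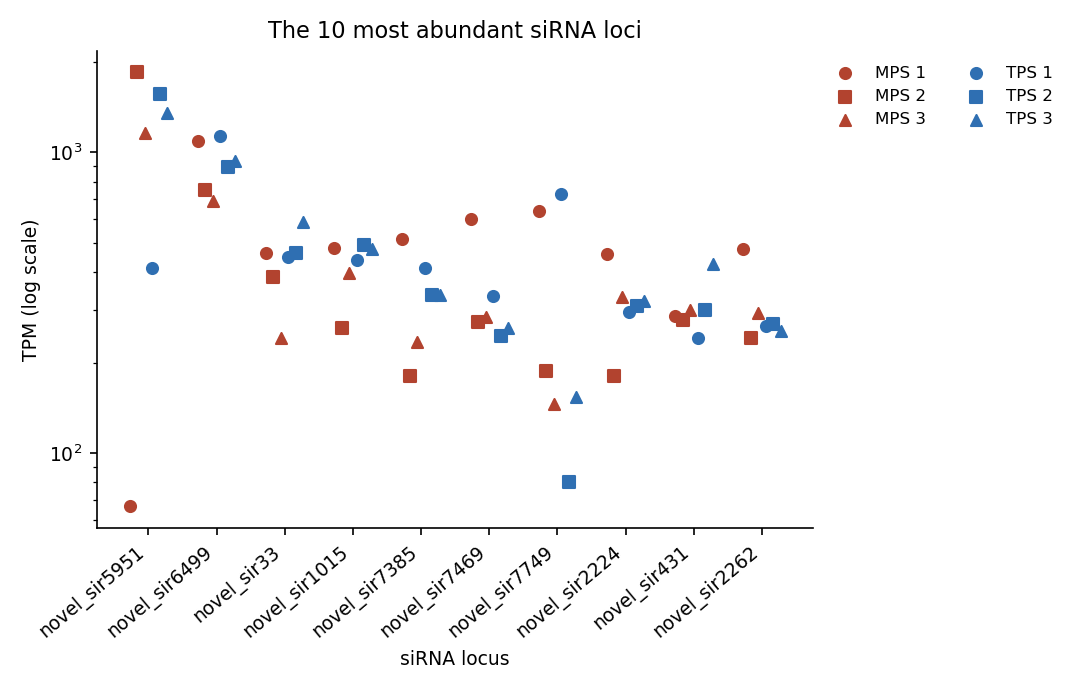
Level in TPM (vertical axis, log scale) of the 10 loci with the largest mean, with 1 point per library, red for MPS and blue for TPS, and circles, squares and triangles for replicates 1, 2 and 3. The red and blue points overlap for most loci, and the circles of novel_sir5951 lie at 66.6 TPM in MPS and 411 TPM in TPS, below the other 4 points.

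No member passed the test of MPS against TPS. A call needed a Benjamini-Hochberg adjusted p below 0.05 from edgeR (quasi-likelihood) over the 4689 small RNAs fitted, together with a log2 fold change of 1 or more in size. It was met by 0 of the 2870 loci, and by 0.0% of all small RNAs fitted. All 2870 loci entered the fit. The lowest adjusted p of a member was 0.211. At an unadjusted p under 0.05 there were 304 members, 150 higher and 154 lower in MPS, a share of 10.6% that lies beside 10.4% over all small RNAs fitted. DESeq2 called 11 of the 2866 members it tested, beside 44 of all 5958 small RNAs it tested (0.739%). Limma called 0 members, beside 1 of all 4689 small RNAs fitted.

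The size of the fitted differences was small for most loci. The median log2 fold change of MPS over TPS was 0.05 for the 2870 loci and -0.01 for all small RNAs fitted. It was 0.19 and 0.12 when libraries were scaled by their totals without TMM normalization, so that the median depends on the scaling. For 2533 loci the fitted log2 fold change lay within 1 of 0. It was 1 or more in 153 loci, 5.33% beside 10.7% of all small RNAs fitted, and -1 or less in 184, 6.41% beside 14.8%. The rule removed siRNA loci under the listing minimum in any library, which by itself favours small differences among members. In TPM, which is scaled by library totals without TMM, every MPS library exceeded every TPS library in 418 members. This is 14.6% beside 12.5% of all small RNAs fitted. In 219 members every MPS library was below, 7.63% beside 9.13%. The balance of directions depends on the scaling: at an unadjusted edgeR p under 0.05, 232 members were higher and 104 lower without TMM, against 150 and 154 with it.

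The loci with the lowest p and no overlap between sections are given as values that did not pass. In MPS the highest ranked was novel_sir4365, with 42.1, 38.6 and 27.8 TPM in MPS, against 9.90, 11.8 and 10.4 TPM in TPS. Its fitted log2 fold change was 1.62 ± 0.242 (SE, edgeR adjusted p = 0.252). DESeq2 gave this locus an adjusted p of 0.000277. Every MPS library lay above every TPS library, but the adjusted edgeR test did not call the locus.

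Similar patterns were seen in novel_sir6902, with 49.5, 38.3 and 35.7 TPM in MPS, against 14.5, 19.6 and 14.5 TPM in TPS. The locus novel_sir4093 had 22.6, 20.9 and 15.8 TPM in MPS, against 6.30, 8.80 and 6.06 TPM in TPS. Their fitted log2 fold changes were 1.20 ± 0.237 and 1.35 ± 0.271 (SE). The remaining pair, novel_sir4222 and novel_sir6769, had lower levels, with means of 4.48 and 2.90 TPM in MPS, against 1.26 and 1.09 TPM in TPS. All 4 had an edgeR adjusted p of 0.252.

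Among loci lower in MPS, novel_sir5740 had the lowest p of all members. It had 0.78, 0.72 and 0.87 TPM in MPS, against 5.52, 4.98 and 5.0 TPM in TPS, which are 25, 22 and 27 tags in MPS and 170, 154 and 138 tags in TPS. The fitted log2 fold change was -2.83 ± 0.278 (SE, edgeR unadjusted p = 4.5e-05, adjusted p = 0.211). DESeq2 called this locus as well. Its values were close within each section, replicate 1 included.

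The other 4 loci named on this side were also scarce. The locus novel_sir2245 had 1.00, 0.98 and 1.06 TPM in MPS, against 2.95, 4.53 and 3.88 TPM in TPS, and novel_sir5860 had 0.56, 1.05 and 1.09 TPM in MPS, against 3.73, 4.47 and 4.42 TPM in TPS. For novel_sir7309 and novel_sir7679 the means were 0.532 and 0.523 TPM in MPS, against 2.39 and 2.23 TPM in TPS. Fitted log2 fold changes of these 4 ran from -2.31 to -2.01, with an edgeR adjusted p of 0.252 for each. In all of them every MPS library was below every TPS library.

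The 11 members called by DESeq2 were 3 higher in MPS (novel_sir4365, novel_sir6902 and novel_sir4093) and 8 lower. Of the 8, novel_sir5740, novel_sir2245 and novel_sir5860 are described above, and the other 5 are named here after their values were seen. The most abundant was novel_sir3438, with 17.4, 13.1 and 20.0 TPM in MPS, against 40.1, 49.4 and 40.0 TPM in TPS. The locus novel_sir2878 had 12.4, 9.16 and 14.0 TPM in MPS, against 22.6, 27.7 and 27.5 TPM in TPS. The rest were novel_sir6106, novel_sir4434 and novel_sir3379, with DESeq2 adjusted p from 0.0435 to 0.0498.

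**Figure D4:**
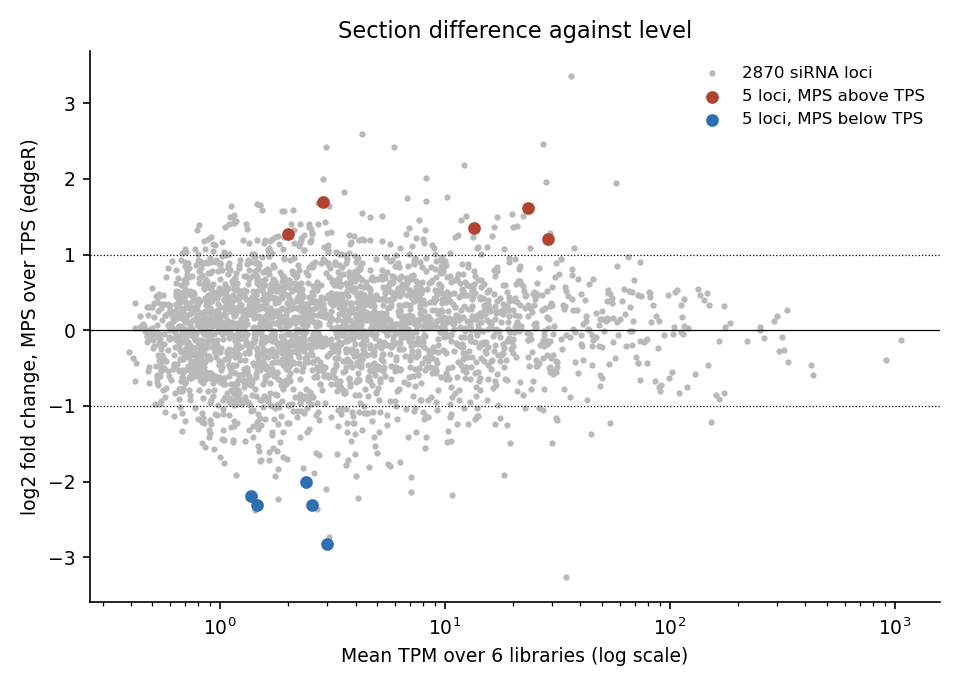
Fitted log2 fold change of MPS over TPS (vertical axis, edgeR) against the mean level in TPM over the 6 libraries (horizontal axis, log scale) for the 2870 loci, with dotted lines at 1 and -1. Red points mark the 5 named loci higher in MPS and blue points the 5 named loci lower in MPS, none of which passed the adjusted threshold.

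In the levels of the members, MPS replicate 1 stood further from the other libraries than TPS replicate 1 did. Spearman's rho over the 2870 loci was 0.921 between MPS 2 and MPS 3 and 0.941 between TPS 2 and TPS 3. It was 0.811 and 0.814 between MPS 1 and the other MPS libraries, and 0.826 between MPS 1 and TPS 1. TPS 1 was closer to TPS 2 (0.862), TPS 3 (0.866) and MPS 3 (0.849) than to MPS 1. Loci share their libraries, so these are descriptions. In TPM, both replicate 1 libraries were above the other 4 in 325 members, 11.3% beside 10.6% of all small RNAs fitted. They were below the other 4 in 342 members, 11.9% beside 16.2%. The count above did not single out the replicate 1 pair. MPS 1 and MPS 2 were above the other 4 in 515 members, MPS 1 and MPS 3 in 401 and TPS 2 and TPS 3 in 351. The count below was the largest of any pair. It was followed by 311 members for TPS 1 and TPS 3 and 296 for TPS 2 and TPS 3.

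The replicate 1 pair was set apart by members with large differences. Both replicate 1 libraries exceeded each of the other 4 by over 2 times in 23 members and lay more than 2 times below each in 52. The next largest counts of a pair were 15 above (MPS 2 and MPS 3) and 22 below (MPS 1 and TPS 2). Both replicate 1 libraries exceeded each of the other 4 by over 10 times in 4 loci and lay more than 10 times below each in 5. No other pair of libraries showed such a locus. The largest case was novel_sir5948, with 407, 3.11 and 1.22 TPM in MPS, against 575, 3.27 and 2.36 TPM in TPS. It was among the 10 most abundant members in both replicate 1 libraries and ranked no higher than 1228 elsewhere. High only in replicate 1 was also novel_sir5478, with 33.4, 1.05 and 1.25 TPM in MPS, against 62.3, 0.97 and 1.20 TPM in TPS.

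The opposite pattern was seen in novel_sir7239, with 0.41, 12.1 and 12.7 TPM in MPS, against 0.55, 21.1 and 22.3 TPM in TPS. The loci novel_sir1735 and novel_sir412 behaved likewise, with at most 1.10 TPM in either replicate 1 library and at least 15.7 TPM in each of the others. These 6 loci, with novel_sir3899, were selected on this very contrast, so the values are a description and carry no test. Whether plants, sampling or library preparation of replicate 1 differed was not tested.

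**Figure D5:**
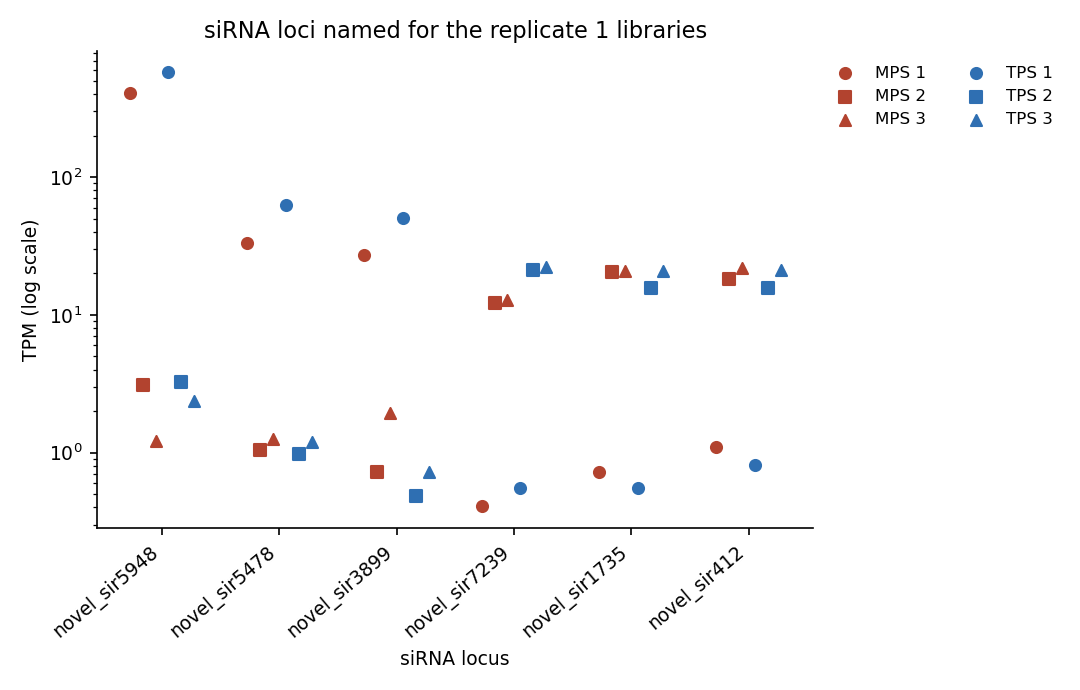
Level in TPM (vertical axis, log scale) of the 3 loci highest and the 3 loci lowest in both replicate 1 libraries, with 1 point per library, red for MPS and blue for TPS, and circles for replicate 1. The circles stand apart from the squares and triangles in both sections, as for novel_sir5948 with 407 TPM in MPS and 575 TPM in TPS.

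Identifier numbers, which run to 7781, gave the only other feature of a locus. Members made up 36.8% to 48.9% of the listed loci in each block of 1000 numbers, and the median level per block lay between 2.47 and 3.39 TPM. Members with adjacent numbers were no more alike in mean level than others, with a Pearson correlation of -0.104 over 1057 pairs (on log2 TPM, across loci). Their profiles over the 6 libraries correlated with a median of 0.206, against 0.156 for members 10 numbers apart. Close numbers could differ greatly: novel_sir5951 was lowest in replicate 1, while novel_sir5948 was high there.

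The silencing genes examined were 2, both from the study's own list of changed genes on these samples, so they are not independent evidence of a direction. RDR1 (BntWG10002091), an RNA-dependent RNA polymerase, was listed at 7.38 FPKM in MPS replicate 2 and 0.46 FPKM in MPS replicate 3 and in no other library. SUVH4 (BntWG10010549), a histone methyltransferase of gene silencing, was listed at 0.20 FPKM in TPS replicate 1 alone. Neither gene was listed in enough libraries to compare the sections.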

How the data were processed

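Small RNA libraries of 3 MPS and 3 TPS bark samples were analysed, grouped by the section in their labels, with transcript levels of matched cDNA libraries. The authors filtered the reads, annotated miRNAs, and deposited the count of tags for each small RNA. The sources used here do not say how siRNAs were called. The deposited TPM values are those counts per 1000000 tags of the library total in the header. FPKM values were calculated by the authors after Bowtie2 alignment and RSEM, and transcripts under the lowest listed value are missing from the lists. No genome was used.

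Counts were joined by identifier. The section test was edgeR 4.0.16 (quasi-likelihood, TMM, header totals as library sizes, filterByExpr) in R 4.3.3, with Benjamini-Hochberg adjustment over all small RNAs fitted and calls made where adjusted p was below 0.05 and the log2 fold change was 1 or more in size. Standard errors are approximate, taken as the size of the log2 fold change divided by the root of the F statistic. Alternatives used DESeq2 1.42.0 and limma 3.58.1 (log2 of TPM plus 0.5 or 0.1). For single values per library, exact permutation tests were used, two-sided (scipy 1.17.1). The edgeR and limma fits, but not DESeq2, were run on simulated data. The simulated spread (dispersion) was below the common value of 0.572 in the main fit. That run therefore does not show how the fits perform at the spread of these data. Sources describe the replicates as separate samples.

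The loci named were the 10 with the largest mean TPM, up to 5 per direction with the lowest unadjusted p and no overlap of sections where fewer were called, the 3 per direction that set replicate 1 furthest apart and the 3 steadiest (both at a mean of at least 10 TPM), and the 3 on each side of the rule's edge. The set and these lists were chosen with earlier results of these data known. Same-numbered libraries deviated together from their section means (Pearson r over the loci 0.426, 0.191 and 0.508 for replicates 1 to 3). Libraries of different numbers had r from -0.515 to 0.248, and MPS 2 deviated more closely with TPS 3 (0.248) than with TPS 2. The numbers were taken to pair the samples because each same-number r was over 0.1, so from the data, not from a label. For replicate 2 the data did not single out this pairing.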

Additional observations from a re-analysis of the deposited data

How the results depend on the processing

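The number of members called stayed at 0 under limma, other scalings, other filters, siRNA loci fitted alone, no fold threshold, each library left out and replicates 2 and 3 alone (the last chosen after seeing the data), and DESeq2 called 11. The fit with the replicate block called 0 members, with 455 at an unadjusted p under 0.05 against 304 without it, and, with exact paired permutation tests of the library values (chosen after seeing the data), changed no other call. The set held 839 loci at a minimum of 100 counts in every library, and 2904 to 3059 when 1 library was left out. As a share of siRNA and miRNA counts, the members' difference of MPS minus TPS was -0.795 percentage points (exact permutation p = 0.7), against 0.236 as a share of all tags, which ranged from 0.063 to 0.335 when 1 library was left out and was lowest without MPS replicate 1. The difference in the share of the top locus ranged from -1.14 to 0.42 when 1 library was left out, turning positive without MPS replicate 1, MPS replicate 3 or TPS replicate 2. The cause of these changes was not tested.

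The 15 loci named for a section difference had sections that do not overlap, so that leaving out libraries could not turn their direction, and their signs say nothing of stability. Of the 22 other named loci, none of which was called in any fit, 13 changed the sign of their log2 fold change in at least 1 alternative (49 fits in all). With 1 library left out, values ran from -0.90 to 0.43 for novel_sir5951, -0.066 to 0.47 for novel_sir7469, -1.04 to 1.31 for novel_sir7749, -0.31 to 0.16 for novel_sir2224 and -0.027 to 0.33 for novel_sir2262. They ran from -6.61 to 5.32 for novel_sir5948, -4.35 to 3.20 for novel_sir5478, -3.83 to 3.79 for novel_sir3899, -0.37 to 0.75 for novel_sir1735 and -0.41 to 0.69 for novel_sir412, and from -0.11 to 0.11 for novel_sir1998 and -0.075 to 0.085 for novel_sir1572. With replicates 2 and 3 only, values were 0.058 for novel_sir5951, 0.54 for novel_sir7749, 0.10 for novel_sir5478, 1.14 for novel_sir3899, 0.15 for novel_sir1998 and 0.075 for novel_sir1572. Limma with 0.5 and 0.1 added gave 0.32 and 0.32 for novel_sir7749, 0.14 and 0.30 for novel_sir3899, 0.12 and 0.12 for novel_sir1998, 0.12 and 0.13 for novel_sir1572 and 0.067 and 0.068 for novel_sir1365. Library totals without TMM gave 0.017 for novel_sir7749, 0.073 for novel_sir2224, 0.12 for novel_sir1998, 0.13 for novel_sir1572 and 0.061 for novel_sir1365. The replicate block gave 0.18 for novel_sir7749 and 0.14 for novel_sir3899, a term for replicate 1 gave 0.16 and 0.23 for these, and no filter on low counts gave 0.0033 for novel_sir1572. The spread between libraries and the listing minimum of 10 counts limit what can be seen for scarce loci.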

Other observations

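Loci close in number to the most variable members were named after their values were seen. The locus novel_sir5944, which is not a member, had 124 TPM in MPS replicate 1 and 571 TPM in TPS replicate 1 and was listed in no other library. The locus novel_sir785, also not a member, had 842 TPM in MPS replicate 1 and 499 TPM in TPS replicate 1 and was listed nowhere else. Its neighbour novel_sir788, a member, had 513, 209 and 243 TPM in MPS, against 340, 194 and 239 TPM in TPS.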
